A study of Rattus norvegicus with 18 samples.

Results

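Of the zinc-dependent histone deacetylases (Hdac genes), 10 were followed in the dorsal hippocampus of 18 adult male Sprague Dawley rats, wild type, by RNA-Seq. Hdac10 was not among them. The members were the 10 genes Hdac1, Hdac2, Hdac3, Hdac4, Hdac5, Hdac6, Hdac7, Hdac8, Hdac9 and Hdac11, taken by symbol from the 38445 genes of the count files. Of the 10 members, 9 passed the filter on low values and were tested, together with 17853 genes in all. Control rats (n = 6) were fed the Lieber-DeCarli liquid diet without ethanol for 16 days. Chronic Ethanol rats (n = 6), called the ethanol group, were fed the diet with 9% v/v ethanol for 16 days and had 0 h of withdrawal. Withdrawal rats (n = 6) were fed the 9% v/v ethanol diet for 15 days and then control diet for 24 h. Per the study's methods, both groups given ethanol were first brought up to this level gradually on weaker ethanol diets. That came before the days counted here, and rats were pair fed. All 3 groups carried no transgene, were all male and were kept on liquid diet, and each library came from 1 rat. The design asked which transcripts change with chronic ethanol, and which change once ethanol is taken away.

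Histone deacetylases remove acetyl groups from lysines of histones and other proteins, and deacetylated chromatin is in general less open to transcription. Class I enzymes (Hdac1, Hdac2, Hdac3 and Hdac8) are mostly nuclear, and Hdac1, Hdac2 and Hdac3 work as the catalytic subunits of corepressor complexes such as CoREST, SIN3, NuRD and NCoR. Class IIa enzymes (Hdac4, Hdac5, Hdac7 and Hdac9) bind transcription factors of the MEF2 family and shuttle out of the nucleus when calcium-dependent kinases phosphorylate them. Hdac6 is the only class IIb gene among the members and deacetylates tubulin in the cytoplasm, and Hdac11 is the sole class IV enzyme. In the hippocampus this family is known for its part in memory and in neuronal responses to activity.

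Each library held between 30873228 and 42679748 read pairs counted on genes (median 36302755). Values are given as CPM, which is read pairs scaled to library size by the TMM method, or as RPKM, which is that CPM per kilobase of exon. The names of the deposited libraries carry 3 different codes, called index sets here, and the sample labels do not say what these mark. Set 1 was found in the control group alone. Set 2 was found in the ethanol group and withdrawal rats 1 and 2, and set 3 in withdrawal rats 3 to 6. The difference from controls therefore cannot be told apart from the index set. The labelled tissue was checked with 6 hippocampal neuron markers. Wfs1, Prox1 and Neurod2 were well expressed (medians of 270.1, 120.2 and 96.3 CPM), whereas Zbtb20 had a median of 2.71 CPM, Spink8 stayed at or below 0.623 CPM and Fibcd1 at or below 0.0650 CPM in every rat. The summed level of this list was lowest in withdrawal rat 5 (165.8 CPM) and ethanol rat 1 (315.4 CPM), and it was 425.9 to 598.9 CPM in control rats. In withdrawal rat 5 Wfs1, Prox1 and Neurod2 were all below every control rat. In ethanol rat 1 this held for Wfs1 (124.0 CPM) and Neurod2 (51.0 CPM) only. Prox1 there (138.1 CPM) lay within the control range (116.8 to 147.8 CPM). Ethanol rat 1 also had the highest sum of 5 thalamus markers (1412 CPM, against 246.8 to 729.3 CPM in control rats). Choroid plexus markers ranged from 27.8 to 5249 CPM within the withdrawal group. Fewer cells of a type and less RNA per cell cannot be told apart in these bulk samples.

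The family spanned a wide range of levels, and the order of its members was nearly the same in each group. Per length, Hdac11 was highest in control rats (62.3 ± 7.52 RPKM, SD, n = 6) and Hdac8 was lowest (1.28 ± 0.158 RPKM), a ratio of 48.6. Hdac2 followed Hdac11 at 44.8 ± 2.18 RPKM. Hdac3 had 34.7 ± 1.28 RPKM and Hdac5 had 32.1 ± 3.18 RPKM, and the ranges of these neighbours overlapped between control rats. Hdac1 stood at 16.2 ± 1.20 RPKM, with a range that overlapped neither neighbour. Hdac7 (5.16 ± 0.620 RPKM), Hdac9 (5.04 ± 0.522 RPKM) and Hdac4 (4.31 ± 0.261 RPKM) formed a group in which each overlapped the next. In both the ethanol and the withdrawal group Hdac5 was placed above Hdac3, and the rest of the order was that of the controls. The Hdac1 level per length was a similar fraction of that of its partner Hdac2, with a median ratio of 0.352 in control, 0.387 in ethanol and 0.363 in withdrawal rats and overlapping ranges (0.324 to 0.420, 0.313 to 0.405 and 0.287 to 0.390). The RPKM values rest on the summed exon length of each gene, which runs from 1651 bases for Hdac3 to 15745 bases for Hdac4, so a gene whose long exons are little used has a lower value.

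**Figure D1:**
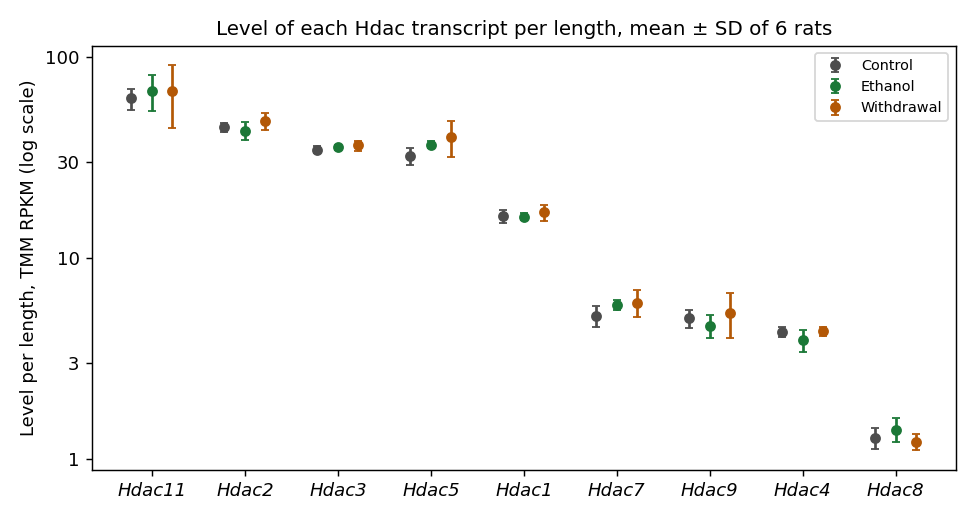
Level per length (TMM RPKM, log scale) of the 9 tested Hdac genes in control, ethanol and withdrawal rats. Dots are means of 6 rats and bars are SD. Genes are ordered by their control level, from Hdac11 at 62.3 RPKM to Hdac8 at 1.28 RPKM, and the 3 groups lie close together for each gene.

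Class IIa held both Hdac transcripts that were DE. Hdac5 and Hdac7 rose in withdrawal compared to control rats, whereas Hdac4 and Hdac9 did not pass the test. Between withdrawal and control, 2 of 9 tested members passed q < 0.1 in limma-voom, where 5.41% of all genes tested passed, and both increased, where 2.85% of all genes increased. Hdac5, Hdac7 and Hdac2 (3 of 9) had an unadjusted p under 0.05, against 19.7% of all genes. No member had groups that did not overlap (0 of 9, against 1.06% of all genes).

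Hdac5 (chr10:90140183-90169853 on Rnor_6.0, minus strand, 24 exons) encodes a signal-responsive repressor of MEF2 targets. It ranged from 90.7 to 116.4 CPM in control rats (median 103.5), from 110.4 to 121.5 CPM in ethanol rats (median 120.3) and from 104.8 to 178.6 CPM in withdrawal rats (median 123.0). Withdrawal rat 1 was highest, well above the next withdrawal rat, and the groups overlapped, with 4 of 6 withdrawal rats and 4 of 6 ethanol rats above every control rat. The fitted increase in W vs. C was 0.27 ± 0.079 on the log2 scale (SE, 1.21-fold, 95% interval 0.10 to 0.44, q = 0.0788, limma-voom). The exact permutation test of the unadjusted values gave p = 0.0195 (two-sided) and, adjusted over the same test of all genes, q = 0.296. In E vs. C the fitted difference was 0.23 ± 0.084 (q = 0.277), and the exact permutation p was 0.0108 (q = 0.249). Without withdrawal rat 1 the W vs. C difference was 0.17 with q = 0.147, and the withdrawal mean fell from 128.5 to 118.4 CPM, against 103.3 CPM in control rats.

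Hdac7 (chr7:139280396-139319108, minus strand, 26 exons), a class IIa repressor best known from endothelial cells and thymocytes, had lower counts. It ranged from 23.01 to 31.1 CPM in control rats (median 29.4), from 30.03 to 34.8 CPM in ethanol rats (median 31.7) and from 28.2 to 40.3 CPM in withdrawal rats (median 31.1). Only 3 of 6 withdrawal rats and 3 of 6 ethanol rats lay above every control rat, and control rats 4 and 5 were lowest. The fitted increase in W vs. C was 0.18 ± 0.052 (SE, 1.13-fold, 95% interval 0.07 to 0.29, q = 0.0778). The exact permutation p was 0.0909 (two-sided, q = 0.477). In E vs. C the fitted difference was 0.21 ± 0.056 with q = 0.135, and DESeq2 with the same surrogate variables gave q = 0.0348 there. Hdac7 passed in E vs. C in 2 of 13 other models, with q up to 0.466, and in 0 of 18 fits that left out 1 rat.

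Hdac4 (chr9:99052945-99299715, minus strand, 30 exons), which represses synaptic genes when it stays in the nucleus, differed little between withdrawal and control in the fit. It ranged from 60.8 to 71.6 CPM in control rats (median 69.0), from 49.6 to 69.4 CPM in ethanol rats (median 61.9) and from 64.8 to 72.4 CPM in withdrawal rats (median 66.9). Ethanol rats 1 and 4 were lowest, and the ranges of all groups overlapped. The fitted differences were -0.01 ± 0.034 in W vs. C (95% interval -0.08 to 0.06, q = 0.900), -0.04 ± 0.036 in E vs. C (q = 0.722) and 0.03 ± 0.038 in W vs. E (q = 0.768). Without surrogate variables the values were 0.0073 in W vs. C, where the sign turned, -0.15 in E vs. C (q = 0.430) and 0.16 in W vs. E (q = 0.237), and the exact permutation p was 0.104 in E vs. C and 0.0758 in W vs. E.

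Hdac9 (chr6:53487367-54358694, minus strand, 30 exons), the MEF2-binding member with the longest gene, was the most spread class IIa transcript in withdrawal. It ranged from 48.0 to 61.6 CPM in control rats (median 53.0), from 42.98 to 60.5 CPM in ethanol rats (median 50.1) and from 40.3 to 77.7 CPM in withdrawal rats (median 61.2). Withdrawal rats fell on both sides of the other groups, with rats 1 and 5 below every control rat and rats 3 and 6 above. The fitted difference in W vs. E was 0.31 ± 0.116 (95% interval 0.07 to 0.56, q = 0.183), and it was 0.14 ± 0.102 in W vs. C (q = 0.457) and -0.17 ± 0.110 in E vs. C (q = 0.559). In W vs. E DESeq2 gave q = 0.0935 and sample quality weights gave q = 0.0762, these being 2 of 13 other models in which it passed, while without surrogate variables the value was 0.19 (q = 0.486) and the replicate block gave q = 0.356. The exact permutation p there was 0.318. Leaving out 1 rat moved the W vs. C value between 0.04 (without withdrawal rat 3) and 0.21 (without withdrawal rat 1), it was 0.06 without surrogate variables, and the W vs. E value passed in 1 of 18 such fits (without withdrawal rat 1, q = 0.0952). The E vs. C value lay between -0.22 and -0.09 in these fits. Among rats that share an index set (6 ethanol rats, withdrawal rats 1 and 2), the difference of mean log2 CPM was -0.0040.

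**Figure D2:**
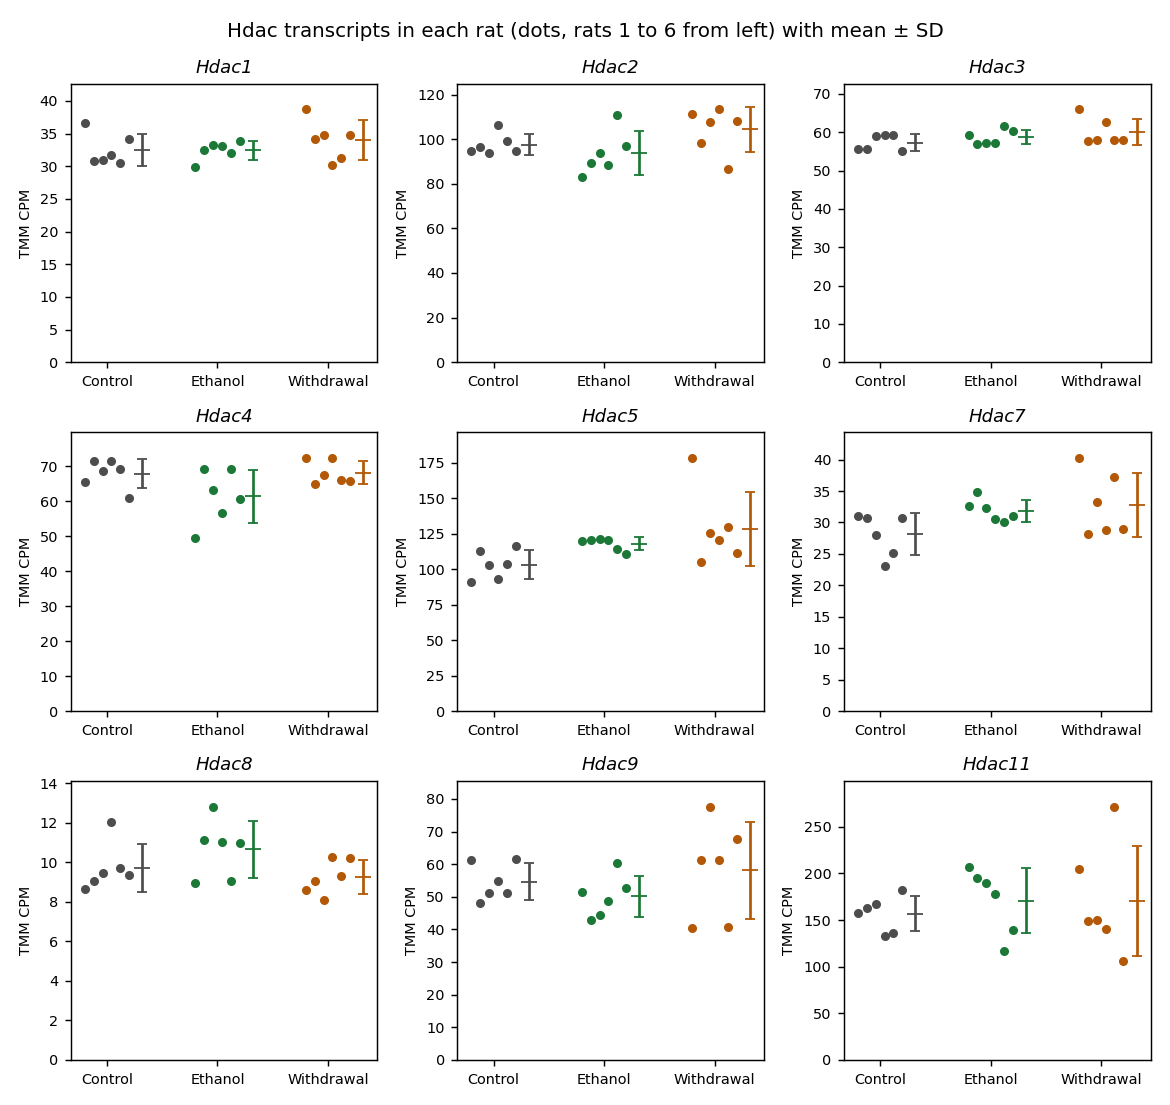
TMM CPM of the 9 tested Hdac genes in each of 18 rats, by group, with axes from 0. Dots are single rats in the order of their replicate number, and the bars are mean ± SD of 6 rats. The groups overlap for every gene, and withdrawal rats 1 (Hdac5, 178.6 CPM) and 5 (Hdac11, 271.6 CPM) stand high.

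The promoters of the class IIa genes are shown because these are the members of 1 class that did and did not pass the test. Each run covers 250 bases before and 50 bases after the RefSeq start of the gene on GRCr8, another build than that of the counts, read 5′ to 3′ on the strand of the gene. Capitals mark the CCAAT box, the CRE half-site (TGACG), the E-box (CACGTG) and the MEF2 site, each on either strand, and in Hdac5 the E-box and a CRE half-site share letters. These motifs were chosen after the sequences had been seen. Hdac5 lies at chr10:87688005-87688304, Hdac7 at chr7:130840968-130841267, Hdac4 at chr9:100197588-100197887 and Hdac9 at chr6:57052522-57052821, all on the minus strand.
Hdac5: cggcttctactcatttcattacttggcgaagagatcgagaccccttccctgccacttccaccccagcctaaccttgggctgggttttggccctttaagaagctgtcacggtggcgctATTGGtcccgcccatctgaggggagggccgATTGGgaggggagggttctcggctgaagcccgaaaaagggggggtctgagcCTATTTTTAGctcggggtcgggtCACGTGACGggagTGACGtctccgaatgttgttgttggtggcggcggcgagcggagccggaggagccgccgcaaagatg
Hdac7: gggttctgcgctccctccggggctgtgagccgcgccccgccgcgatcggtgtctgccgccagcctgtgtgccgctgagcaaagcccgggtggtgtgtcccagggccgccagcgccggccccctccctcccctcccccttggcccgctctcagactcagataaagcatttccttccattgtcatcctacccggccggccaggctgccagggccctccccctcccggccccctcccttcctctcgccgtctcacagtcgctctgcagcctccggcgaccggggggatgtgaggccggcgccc
Hdac4: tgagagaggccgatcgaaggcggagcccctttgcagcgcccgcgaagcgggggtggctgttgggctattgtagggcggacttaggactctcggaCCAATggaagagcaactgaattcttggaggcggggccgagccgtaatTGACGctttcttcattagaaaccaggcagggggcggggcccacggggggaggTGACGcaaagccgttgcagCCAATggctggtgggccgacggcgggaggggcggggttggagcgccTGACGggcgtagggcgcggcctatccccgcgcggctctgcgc
Hdac9: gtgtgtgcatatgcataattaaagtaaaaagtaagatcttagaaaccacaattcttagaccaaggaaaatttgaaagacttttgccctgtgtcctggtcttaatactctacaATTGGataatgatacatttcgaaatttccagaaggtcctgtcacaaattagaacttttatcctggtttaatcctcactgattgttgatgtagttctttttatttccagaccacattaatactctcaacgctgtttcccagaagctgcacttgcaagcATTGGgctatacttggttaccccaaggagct

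The Hdac5 promoter held CTATTTTTAG, a match to the MEF2 site, starting 52 bases before the start of the gene. A match to the MEF2 site on either strand was found in 3.29% of 33469 promoters of this length. CTATTTTTAG itself was found in 0.137% of them. That run was read from the Hdac5 window, so 3.29% is the share to set beside the match. No other member of the 9 with a promoter sequence held a MEF2 match. Hdac5 was also the 1 member with the E-box, which 6.42% of all promoters hold. The CRE half-site was found in Hdac1, Hdac4, Hdac5 and Hdac8, with 21.2% of all promoters, and the CCAAT box in Hdac1, Hdac4, Hdac5, Hdac6 and Hdac9, with 37.5% of all promoters. The Hdac7 window held none of the motifs searched, which also included the GC box (GGGCGG, 33.1% of all promoters) and the TATA box (TATAAA, 14.2%). Of the 9 member windows 7 held 60.7% (Hdac5) to 72.7% (Hdac7) GC, called or not, against a median of 51.7% over all promoters, while Hdac8 had 41.3% and Hdac9 37.0%. These matches are descriptions of letters in a window and were not tested for binding.

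**Figure D3:**
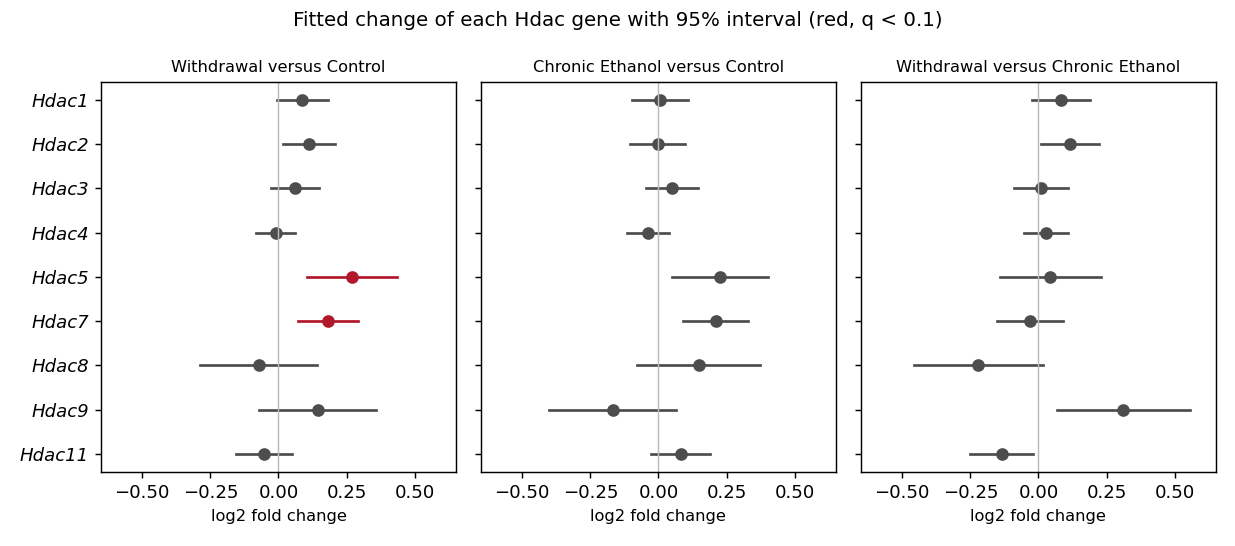
Fitted log2 fold change of the 9 tested Hdac genes in the 3 comparisons. Dots are limma-voom estimates and lines are 95% intervals. Hdac5 (0.27) and Hdac7 (0.18) in withdrawal versus control are the values with q < 0.1, drawn in red.

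The class I genes did not pass the test in any comparison. Their changes in W vs. C lay between -0.07 and 0.11 on the log2 scale with a median of 0.07, and the smallest q was 0.177.

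Hdac2 (chr20:43084870-43108198), the class I enzyme most studied as a brake on memory genes, had the lowest q of them in W vs. C. It ranged from 93.8 to 106.4 CPM in control rats (median 95.6), from 83.0 to 110.9 CPM in ethanol rats (median 91.5) and from 86.7 to 113.5 CPM in withdrawal rats (median 108.0). Of the withdrawal rats 4 of 6 were above every control rat, and withdrawal rat 5 was below them all. The fitted difference was 0.11 ± 0.045 in W vs. C (95% interval 0.02 to 0.21, q = 0.177), 0.00 ± 0.048 in E vs. C (q = 0.991) and 0.11 ± 0.050 in W vs. E (q = 0.259). Leaving out 1 rat moved the W vs. C value between 0.07 (without withdrawal rat 1) and 0.14 (without withdrawal rat 2, where it passed with q = 0.0639). The W vs. E value moved between 0.07 and 0.16 and passed in 1 of 18 such fits (without ethanol rat 5, q = 0.0954).

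Hdac1 (chr5:147716664-147743723), the close partner of Hdac2 in the same complexes, ranged from 30.6 to 36.6 CPM in control, from 29.8 to 33.9 CPM in ethanol and from 30.1 to 38.8 CPM in withdrawal rats (medians 31.4, 32.7 and 34.4). The groups overlapped, with 4 of 6 withdrawal rats above every ethanol rat and 1 of 6 above every control rat. The fitted difference in W vs. C was 0.09 ± 0.045 (95% interval -0.01 to 0.18, q = 0.290). The Hdac1 and Hdac2 counts are uncertain to a degree, since the files also list 17 rows for Hdac1 copies and 1 for Hdac2 and pairs that map to several places were not counted. The copies of Hdac1 held 5.03% as many pairs as Hdac1 itself, 876 of their 1082 pairs on Hdac1-ps8.

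Hdac3 (chr18:31073057-31094347), the catalytic subunit of NCoR, had the lowest coefficient of variation of the members in control (3.70%) and ethanol rats (3.29%), while in withdrawal rats Hdac4 was lower (4.92%, against 5.85% for Hdac3). Its ranges were 55.1 to 59.4 CPM in control, 56.9 to 61.5 CPM in ethanol and 57.7 to 66.1 CPM in withdrawal rats (medians 57.3, 58.3 and 58.0). The withdrawal range was set at the top by rat 1. The fitted difference in W vs. C was 0.06 ± 0.042 (95% interval -0.03 to 0.15, q = 0.446), and it was 0.02 without withdrawal rat 1 (q = 0.813).

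Hdac8 (chrX:72163777-72370058), which deacetylates the cohesin subunit Smc3, was the least abundant member, with 265 to 446 read pairs per rat. It ranged from 8.63 to 12.04 CPM in control, from 8.97 to 12.8 CPM in ethanol and from 8.09 to 10.3 CPM in withdrawal rats (medians 9.43, 11.0 and 9.19). Control rat 4 alone set the top of the control range. The largest fitted difference was in W vs. E, at -0.22 ± 0.112 (95% interval -0.46 to 0.02, q = 0.331), so a fall or a small rise cannot be told apart at this depth and spread. Leaving out 1 rat moved this value between -0.33 and -0.14, and it passed in 1 of 18 such fits (without ethanol rat 5, q = 0.0779).

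Hdac11 (chr4:122781095-122798355, plus strand, 10 exons), which also removes long acyl chains from proteins, was the most variable member in ethanol and in withdrawal rats. It ranged from 133.0 to 182.4 CPM in control rats (median 160.0), from 116.7 to 206.6 CPM in ethanol rats (median 183.6) and from 106.3 to 271.6 CPM in withdrawal rats (median 149.4). Withdrawal rat 5 was the highest of all rats and withdrawal rat 6 the lowest, so the withdrawal group enclosed the other groups. The coefficient of variation was 12.1% in control, 20.6% in ethanol and 34.6% in withdrawal rats, and in control rats that of Hdac8 was slightly higher (12.3%). The fitted differences were -0.05 ± 0.049 in W vs. C (q = 0.577), 0.08 ± 0.052 in E vs. C (q = 0.544) and -0.13 ± 0.055 in W vs. E (95% interval -0.25 to -0.02, q = 0.223). Leaving out 1 rat moved the W vs. E value from -0.03 (without withdrawal rat 6) to -0.20 (without ethanol rat 5, q = 0.0532), and it also passed q < 0.1 without withdrawal rat 2. Without surrogate variables the SE in W vs. C was 0.183 and the sign was positive (0.065, q = 0.928), and in W vs. E the value was -0.04 (q = 0.929). The exact permutation p was 0.773 in W vs. C and 0.881 in W vs. E, where the plain means were 170.3 and 170.8 CPM.

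Hdac6 could not be measured. Its named row (chrX:15396185-15417486, plus strand) held 2 read pairs in all 18 rats, and an unnamed row of the same exon layout nearby (chrX:15295372-15316673) held 24, with at most 3 in a rat. Both rows have 30 exons and 4167 bases of exon. Pairs that map to several places were not counted, so these counts say nothing of how much Hdac6 transcript there was, and the gene was not tested.

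Between ethanol and control, no member passed limma-voom at q < 0.1 (0 of 9, against 0.493% of all genes). Hdac5 and Hdac7 (2 of 9) had an unadjusted p under 0.05, against 12.5% of all genes, edgeR with the same surrogate variables called 0 members (against 0.538% of all genes) and DESeq2 called 1 (Hdac7, against 3.0% of the genes to which it gave an adjusted p). Between withdrawal and ethanol, limma-voom again called 0 of 9, against 2.72% of all genes. There Hdac2, Hdac9 and Hdac11 (3 of 9) had an unadjusted p under 0.05, against 16.7% of all genes, edgeR with the same surrogate variables called 0 (against 2.98% of all genes) and DESeq2 called 1 (Hdac9, against 7.45%). The median log2 fold change of the 9 members was 0.09 in W vs. C, 0.05 in E vs. C and 0.03 in W vs. E, and that of all genes was 0.00 in each. W vs. C and E vs. C share their control rats. Side by side, Hdac5 had 0.27 and 0.23 and Hdac7 had 0.18 and 0.21, and the W vs. E difference itself was 0.04 ± 0.088 for Hdac5 (95% interval -0.14 to 0.23, q = 0.842) and -0.03 ± 0.058 for Hdac7 (95% interval -0.15 to 0.09, q = 0.840). Groups that did not overlap were found for 0 of 9 members in E vs. C (against 1.32% of all genes) and in W vs. E (against 1.22%). The exact permutation tests, adjusted over all genes, called 0 of 9 members in each comparison and also 0.0% of all genes. Their unadjusted p was under 0.05 for 1 of 9 members in W vs. C (against 12.8% of all genes), for 2 of 9 in E vs. C (against 13.5%) and for 0 of 9 in W vs. E (against 14.3%).

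Both calls lay close to the threshold and depended on the model. Among 13 other models of all rats or of the groups compared, Hdac5 and Hdac7 each passed in 7, with q from 0.0246 to 0.246 for Hdac5 and from 0.0341 to 0.385 for Hdac7. Without surrogate variables neither passed (q = 0.246 and 0.385). When each rat was left out in turn, each gene passed in 10 of 18 models, with log2 fold changes from 0.17 to 0.32 for Hdac5 and from 0.15 to 0.21 for Hdac7. Leaving out withdrawal rat 6 gave q = 0.197 for Hdac5 and 0.200 for Hdac7. Neither gene passed without withdrawal rat 1, 3 or 6, or without control rat 3, 4 or 6. Hdac5 also failed without control rat 1 or ethanol rat 6, and Hdac7 without control rat 5 or withdrawal rat 5. Without ethanol rat 1 and withdrawal rat 5, whose regional markers stood apart, Hdac5 passed (0.28, q = 0.0715) and Hdac7 did not (0.16, q = 0.133).

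**Figure D4:**
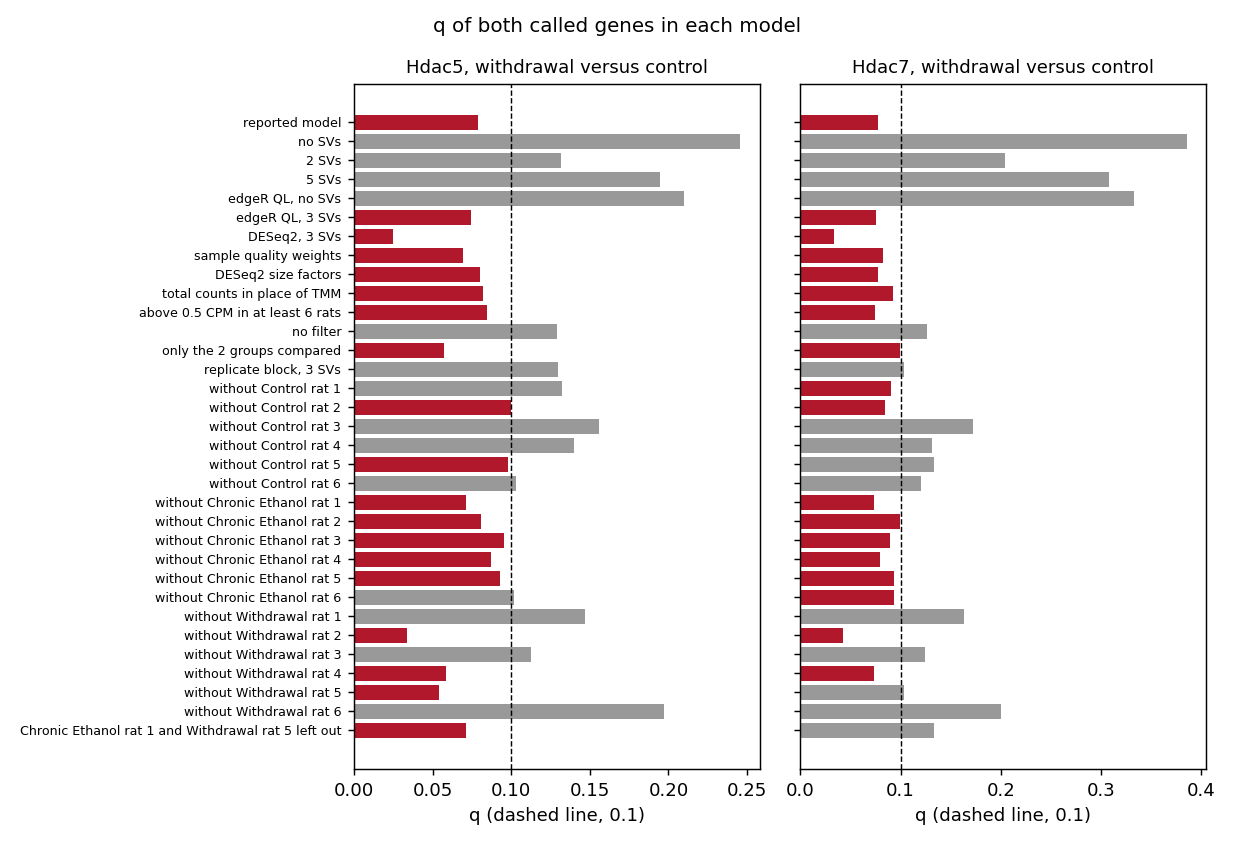
q of Hdac5 and Hdac7 in withdrawal versus control in the reported model and in each other model (SVs, surrogate variables, QL, quasi-likelihood). Bars start at 0, red bars are below the dashed line at q = 0.1. Models without surrogate variables have the longest bars, 0.246 for Hdac5 and 0.385 for Hdac7.

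The levels of several members moved with markers of cell types across the 18 rats, which share group, library and tissue composition. Hdac7 had a Pearson r of 0.857 (Spearman rho 0.825) with the summed level of 6 endothelial markers, and 0.803 once the group means were removed. Hdac5 had r = 0.733 with the same list (rho 0.759, 0.618 without group means), and Hdac11, which was not called, had r = 0.632 (rho 0.699, 0.679 without group means). The endothelial sum was 250.8 to 316.3 CPM in control, 273.6 to 326.9 CPM in ethanol and 269.7 to 351.7 CPM in withdrawal rats, highest in withdrawal rat 1, and 3 of 6 endothelial markers (Pecam1, Flt1 and Kdr) increased in W vs. C at q < 0.1. All 6 were detected in every rat. Other marker lists moved in the same comparison. Both tested erythrocyte markers (Hbb and Alas2) decreased in W vs. C (median -1.53 on the log2 scale) and in E vs. C (median -1.62), and their summed list was 58.4 to 104.1 CPM in control, 16.5 to 40.3 CPM in ethanol and 18.1 to 65.7 CPM in withdrawal rats. With this sum Hdac5 had r = -0.539 (rho -0.517, -0.217 without group means) and Hdac7 had r = -0.377 (rho -0.379, 0.0830 without group means). In W vs. C 2 of 4 oligodendrocyte precursor markers (Olig2 and Pdgfra) increased, of 6 astrocyte markers 1 increased (Gfap) and 2 decreased (Aldh1l1 and Gja1), and of 5 tested hippocampal neuron markers 1 decreased (Prox1). The part of these lists in the change of Hdac5 and Hdac7 was not tested.

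Hdac11 went the other way from the hippocampal neuron list, with r = -0.867 (rho -0.907, -0.858 without the 2 rats farthest from the median sum). Withdrawal rat 5 and ethanol rat 1 had the 2 lowest sums and the highest Hdac11 level of their groups. Hdac4, by contrast, fell where thalamus markers were high (r = -0.801, rho -0.579), and this was -0.485 without ethanol rats 1 and 4, so it rests in part on them. Hdac4 also had r = -0.772 with oligodendrocyte precursor markers and r = 0.689 with neuron markers, and Hdac2 had r = 0.705 with neuron, 0.699 with astrocyte and -0.658 with thalamus markers. The part of these lists in the differences between groups was not tested.

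**Figure D5:**
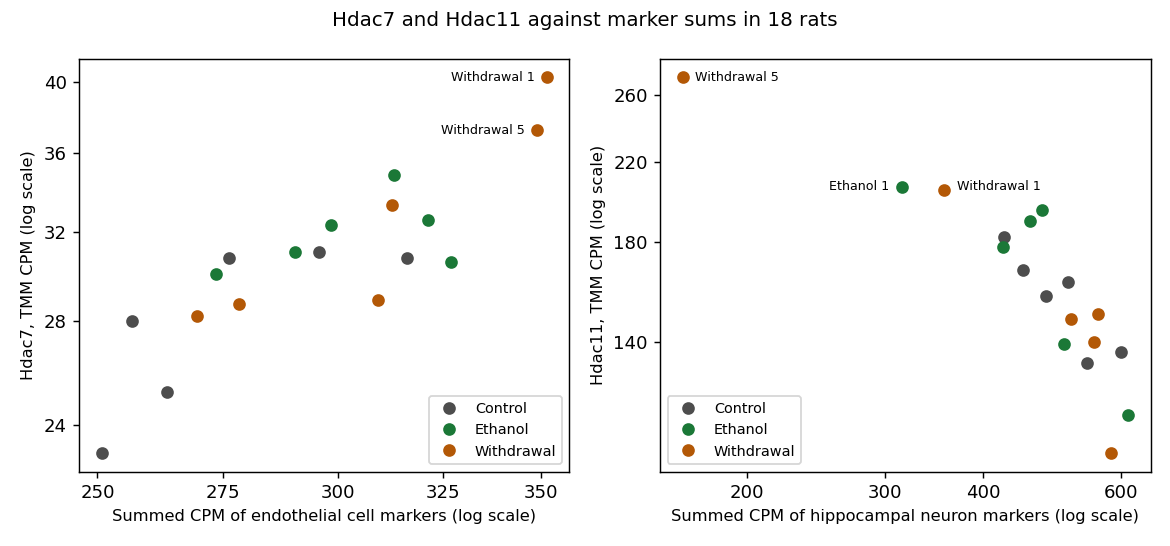
Left, Hdac7 (TMM CPM) against the summed CPM of 6 endothelial cell markers. Right, Hdac11 against the summed CPM of 6 hippocampal neuron markers. Each dot is 1 of 18 rats, colours are groups and axes are log scales. Hdac7 is higher where the endothelial sum is higher (r = 0.857), and Hdac11 is lower where the hippocampal sum is higher (r = -0.867), with withdrawal rat 5 at the far left.

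Among the 36 pairs of tested members, 5 had r above 0.5 and 2 had r below -0.5, with a median of -0.02. The highest was that of the 2 called genes, Hdac5 with Hdac7 (r = 0.794, 0.712 without withdrawal rat 1), followed by Hdac7 with Hdac11 (0.677) and Hdac2 with Hdac4 (0.667). The lowest were Hdac9 with Hdac11 (-0.689) and Hdac2 with Hdac11 (-0.667). Without withdrawal rats 1 and 5, Hdac5 with Hdac7 had 0.657, and Hdac2 with Hdac4 stood above it (0.690). Of all named genes tested, the one whose log2 CPM was most like Hdac5 over the 18 rats was Cdk2ap1, a subunit of the NuRD complex (r = 0.926), then Tnip2 (0.877) and Ankrd50 (0.867). For Hdac7 they were Prkab1, a subunit of AMP-activated kinase (0.924), the growth factor Bmp2 (0.895) and the integrin Itga5 (0.885). For Hdac11 they were Plppr3 (0.978), Ppp1r26 (0.967) and Gpsm1 (0.965), and for Hdac2 they were Armc8 (0.953), Hectd2 (0.945) and the postsynaptic scaffold gene Homer1 (0.942). For Hdac4 they were the transcription factor Fezf2 (0.938), Nol4 (0.929) and Igfbp4 (0.913). For Hdac3 they were Ddx56 (0.885), Psme3 (0.884) and Eif1 (0.858), and for Hdac9 they were Zfp804a (0.852), Mtch2 (0.837) and Tm9sf3 (0.833). Likeness was weaker for Hdac8 (C16h8orf48, 0.759, Bloc1s2, 0.736, Chrac1, 0.727) and Hdac1 (H3f3a-ps3, 0.755, Snx18, 0.742, Ms4a6a, 0.739).

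Few of the genes that work with the deacetylases passed the test. Of 98 genes in 9 lists (complex subunits, class IIa partners, acetyltransferases, sirtuins and acetyl-lysine readers) 97 were tested, and in W vs. C 1 increased and 1 decreased at q < 0.1, against 2.85% and 2.55% of all genes (medians 0.03 for the lists and 0.00 for all genes). Cdk2ap1 rose from 55.0 ± 2.6 CPM in control to 66.2 ± 9.7 CPM in withdrawal rats (SD, n = 6 each), by 0.22 ± 0.052 on the log2 scale (q = 0.0385), and 60.8 ± 4.0 CPM was found in ethanol rats. Baz1b, a bromodomain protein of chromatin remodelling complexes, fell from 250.3 ± 12.05 to 226.0 ± 7.96 CPM, by -0.14 ± 0.031 (q = 0.0270). In E vs. C 0 of 97 passed limma-voom (against 0.493% of all genes), with an unadjusted p under 0.05 in 13 (against 12.5% of all genes), and edgeR with the same surrogate variables called 0 (against 0.538%) and DESeq2 called 5 (against 3.0%). In W vs. E 1 of 97 passed (against 2.72% of all genes), the kinase gene Camk2d (0.21 ± 0.050, q = 0.0628), whose product phosphorylates class IIa deacetylases. Its values before adjustment overlapped widely (59.4 to 165.0 CPM in withdrawal, 44.9 to 147.0 CPM in ethanol rats, exact permutation p = 0.840).

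Within the complexes of Hdac1, Hdac2 and Hdac3, NuRD had 1 of 11 tested genes increased in W vs. C, and CoREST (9 tested), SIN3 (14 tested), NCoR (5 tested) and MiDAC and MIER (5 tested) had none, where 2.85% of all genes increased. The scaffold Sin3a had 52.3 ± 2.9 CPM in withdrawal and 47.3 ± 2.9 CPM in control rats (0.15 ± 0.051, q = 0.113). Rcor1, the core of CoREST, had 0.18 ± 0.063 (q = 0.134), while Ncor1 (0.00, q = 0.993), Chd4 (-0.01, q = 0.875) and Mideas (0.04, q = 0.754) were near 0. Mef2c, the partner of class IIa enzymes, ranged widely in withdrawal (125.8 to 264.8 CPM, against 126.0 to 172.3 CPM in control rats, 0.17 ± 0.117, q = 0.438). The opposing acetyltransferases had 0 of 13 called in any comparison by limma-voom, with an unadjusted p under 0.05 in 3 (W vs. C, against 19.7% of all genes), 1 (E vs. C, against 12.5%) and 5 (W vs. E, against 16.7%). Ep300 had 99.7 ± 1.1 CPM in withdrawal and 92.5 ± 3.4 CPM in ethanol rats, without overlap (0.10 ± 0.035, q = 0.183), and 96.1 ± 3.1 CPM in control rats. Crebbp (0.08, q = 0.626) and Sirt1 (0.05, q = 0.539) did not pass in W vs. C. In a comparison list of 14 genes of DNA methylation 1 increased in W vs. C, Gadd45g (10.9 ± 3.5 against 6.6 ± 0.7 CPM, 0.70 ± 0.163, q = 0.0392), which acts in active demethylation and was named after its values were seen. Ethanol rats had 9.5 ± 1.8 CPM of Gadd45g, also without overlap with control rats (0.45 ± 0.180, q = 0.312). In W vs. E the Gadd45g difference was 0.25 ± 0.170 (q = 0.493).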

How the data were processed

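RNA-Seq (stranded kit, paired ends) covered the dorsal hippocampus of 18 rats. Per the labels and the study's methods, the authors aligned reads with STAR 2.5.2a to Rnor_6.0 and used featureCounts 1.5.0 on exons by strand, leaving out chimeric pairs and pairs with several mapping places. The deposited values are these unnormalized counts. A name for 29322 of 38445 identifiers came from the GRCr8 reference table. Depth was 30873228 to 42679748 counts per rat, and no libraries of a group matched within sampling noise.

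Counts were scaled by TMM (edgeR 4.0.16) and filtered at 0.5 CPM in at least 1 rat. All groups entered 1 limma-voom fit (limma 3.58.1, R 4.3.3) of 17853 genes that held 3 surrogate variables (sva 3.50.0), with Benjamini-Hochberg q within each comparison and a threshold of q < 0.1. The study names neither the number of surrogate variables nor the number of rats in the filter. Surrogate variables take out variation that many genes share, so a fitted change can differ from that of the plain means. For single genes, an exact permutation test (two-sided, 924 splits, smallest p 0.00216) used mean log2 CPM with a prior count of 2. Replicates were separate rats. Python 3.11.15, scipy 1.17.1 and matplotlib 3.10.9 were used.

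The members and gene lists were chosen with earlier results of these data known. Besides the 10 members, genes named were those of the partner lists with q < 0.1 in a comparison (at most 6 each, by smallest p), the defining gene of each complex, and for each member the 3 genes of highest Pearson r of log2 CPM over the rats. The value of 1 gene under this rule is not reported here. Marker genes and Gadd45g fall outside this rule and were named after their values were seen. In simulated data of 17581 genes with 200 changed 2-fold in withdrawal, 172 were recovered with 23 false calls in W vs. C, and 170 with 34 false calls in W vs. E. In this run the false calls exceeded the share set by q < 0.1 in both. No variation shared by many genes was put in. The recovery does not speak to changes as small as those of Hdac5 (1.21-fold) and Hdac7 (1.13-fold). Alternatives varied the surrogate variables, the tool (edgeR quasi-likelihood, DESeq2 1.42.0), weights, scaling, filter, threshold and groups, added a replicate block, and left out each rat. Leaving out ethanol rat 1 together with withdrawal rat 5, and total counts for the permutation test, were added after seeing the data.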

Additional observations from a re-analysis of the deposited data

Results flagged for a closer look

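Of 27 combinations of member and group examined for a rat that stands apart from the other 5, 2 were flagged by Dixon's ratio, whose critical value for 6 rats is 0.625. Chance alone flags about 1 in 20 groups. Hdac5 in withdrawal rat 1 was 178.6 CPM, and the nearest other withdrawal rat had 129.7 CPM (ratio 0.663). Hdac8 in control rat 4 was 12.04 CPM, and the nearest other control rat had 9.69 CPM (ratio 0.689). Withdrawal rat 1 was also the highest withdrawal rat for 5 of 9 members.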

How the results depend on the processing

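The 2 members DE in W vs. C (Hdac5 and Hdac7) were 0 without surrogate variables (limma-voom or edgeR), with 2 or 5 of them, with no filter, at q < 0.05 and with the replicate block, and 1 without ethanol rat 1 and withdrawal rat 5, and leaving out 1 rat gave 0 to 3. Members called in E vs. C and in W vs. E were 1 each with DESeq2 and with sample quality weights, and 0 to 0 and 0 to 3 on leaving out 1 rat. The exact permutation counts of 0 were also 0 on total counts, an alternative added after seeing the data. The cause was not tested.

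All genes called were 965 in W vs. C, 88 in E vs. C and 486 in W vs. E. In W vs. C they were 41 without surrogate variables, 33 with edgeR without them, 594 with 2, 262 with 5, 1624 with DESeq2, 486 with no filter and 370 at q < 0.05, and 23 to 1911 on leaving out 1 rat. In E vs. C they were 50 without surrogate variables, 322 with 5, 473 with DESeq2, 440 with quality weights, 9 with no filter, 28 with only both groups, 33 with the replicate block, 10 at q < 0.05 and 277 without ethanol rat 1 and withdrawal rat 5, and 0 to 258 on leaving out 1 rat. In W vs. E they were 260 with 2 surrogate variables, 871 with 5, 1176 with DESeq2, 1073 with quality weights, 166 with no filter, 0 with only both groups, 1 with the replicate block and 112 at q < 0.05, and 0 to 1800 on leaving out 1 rat.

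Partner genes called in W vs. C (2) were 0 without surrogate variables in limma-voom or edgeR, 10 with DESeq2, 4 with quality weights, with only both groups or without ethanol rat 1 and withdrawal rat 5, and 0 to 8 on leaving out 1 rat. In E vs. C (0) they were 2 with 5 surrogate variables, 5 with DESeq2 or quality weights, 1 without those rats, and 0 to 2. In W vs. E (1) they were 5 without surrogate variables in limma-voom or edgeR, 0 with 2, 4 with 5, 8 with DESeq2, 6 with quality weights, 0 with no filter, only both groups, the replicate block or q < 0.05, 2 with the filter of 6 rats or without those rats, and 0 to 10.

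Signs turned only in comparisons where the member was not called. In W vs. C Hdac4 became 0.0073 without surrogate variables, 0.0070 with edgeR without them and 0.00074 with no filter (leaving out 1 rat, -0.037 to 0.014), and Hdac11 became 0.065, and 0.12 with edgeR (-0.079 to 0.027). In E vs. C Hdac1 became -0.028 with 2 surrogate variables, -0.0028 with edgeR without them and -0.0035 on total counts (-0.013 to 0.031), and Hdac2 became 0.0052 with no filter, 0.0039 with only both groups and 0.022 with the replicate block (-0.039 to 0.035). In W vs. E Hdac3 became -0.019 with 5 surrogate variables, -0.0037 with quality weights, -0.00028 on total counts and -0.0042 with the replicate block (-0.021 to 0.029). Hdac5 there became -0.0040 with 5 surrogate variables (-0.028 to 0.099), and Hdac4 turned only on leaving out a rat (-0.0097 to 0.049). Hdac7 became 0.020 without surrogate variables, 0.039 with edgeR and 0.082 between rats of 1 index set, where Hdac9 was -0.0040 and Hdac11 0.059.

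The replicate numbers name different rats. Same-numbered rats of different groups did not deviate together (4 of 18 pairs with r over 0.1, range -0.325 to 0.383), and 0 of 18 rats were closest to their own number in both other groups. With the replicate block Hdac5 in W vs. C was 0.26 (q = 0.130) and Hdac7 was 0.17 (q = 0.104).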
